A study of Mus musculus with 14 samples.

Results

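Neuropeptide and peptide-processing genes were examined in hippocampal RNA of mice on postnatal day 15. They were 37 genes chosen by symbol from the 36118 genes of the count table, and each symbol matched 1 gene. By role they were 8 precursors of peptides of inhibitory interneurons, 3 precursors of opioid and tachykinin peptides, 8 other peptide precursors, 7 precursors best known from the hypothalamus, 6 granins and 5 genes of precursor processing. There were 4 WT-RA and 4 WT-O2 mice, against 3 KO-RA and 3 KO-O2 mice, with 1 library per mouse. WT mice were wild-type littermates of the knockouts, born to heterozygous parents, and KO mice were homozygous for a Gsdmd allele with a small CRISPR/Cas9 deletion in the fifth exon. RA mice breathed room air, and O2 mice breathed 85% oxygen from postnatal day 1 to day 14, a model of the oxygen therapy of premature infants. All groups shared the C57/BL6 breed (C57BL/6N in the study's methods), the age and the tissue, and the knockout was present in all cells rather than in 1 cell type. Gsdmd encodes gasdermin D, which forms pores in the cell membrane when inflammasomes are active.

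Neuropeptides are made as large precursors that enter the secretory pathway of neurons. Granins help to pack the precursors into dense-core granules, prohormone convertases cut them at pairs of basic residues, carboxypeptidase E trims the cut ends, and peptidylglycine alpha-amidating monooxygenase adds the amide that many of the peptides need. In the hippocampus, somatostatin, neuropeptide Y, cholecystokinin and vasoactive intestinal peptide mark classes of inhibitory interneurons, dynorphin is found in the mossy fibres of granule cells, and vasopressin, oxytocin, orexin and melanin-concentrating hormone arrive in axons of hypothalamic neurons whose cell bodies lie elsewhere. Enkephalin, dynorphin and substance P are also the main peptides of striatal projection neurons.

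Promoter sequences are shown because several of these precursors are textbook targets of the cAMP response element, TGACGTCA, first described in the somatostatin promoter and bound by the factor CREB. RefSeq promoters (build GRCm38.p6, 250 bases before to 50 bases after each start) were found for 30 of the 37 genes, which had 33 promoters in all. Cpe, Pnoc, Penk, Agrp, Vgf, Crh and Grp had no entry. The complete element was in 5 of the 33 promoters (15.2%), against 1.79% of all 32851 promoters of the same length. Its shorter form, TGACG or CGTCA on either strand, both of which the complete element contains, was in 18 (54.5%), against 20.8% of all promoters. The windows below run from 130 to 31 bases before the start, 5′ to 3′ on the strand of the gene, and capitals mark the element. The first 5 hold the complete element and the last 3 the shorter form, as examples from genes whose values are described further on. Vip, Chga and Adcyap1 also had the shorter form in this window and are not shown. In the first 5 only the complete element is marked, and the Pcsk1 window also holds an unmarked TGACG. They lie at chr16:23890875-23890974 (minus strand) for Sst, chr1:79440057-79440156 (minus strand) for Scg2, chr2:132781512-132781611 (plus strand) for Chgb, chr13:75089727-75089826 (plus strand) for Pcsk1 and chr13:99900714-99900813 (minus strand) for Cartpt. The other windows lie at chr6:92244681-92244780 (minus strand) for Trh, chr6:7554931-7555030 (plus strand) for Tac1 and chr9:121495725-121495824 (minus strand) for Cck.
Sst: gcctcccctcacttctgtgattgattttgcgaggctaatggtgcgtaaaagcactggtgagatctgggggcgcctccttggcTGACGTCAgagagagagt
Scg2: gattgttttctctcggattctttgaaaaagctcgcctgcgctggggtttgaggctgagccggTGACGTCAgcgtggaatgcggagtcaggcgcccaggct
Chgb: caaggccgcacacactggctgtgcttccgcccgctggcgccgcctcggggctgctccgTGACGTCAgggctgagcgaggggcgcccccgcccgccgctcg
Pcsk1: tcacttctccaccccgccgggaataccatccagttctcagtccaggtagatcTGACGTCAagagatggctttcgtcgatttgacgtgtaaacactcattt
Cartpt: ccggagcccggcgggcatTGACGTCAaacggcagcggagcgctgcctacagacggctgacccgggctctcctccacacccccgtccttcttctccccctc
Trh: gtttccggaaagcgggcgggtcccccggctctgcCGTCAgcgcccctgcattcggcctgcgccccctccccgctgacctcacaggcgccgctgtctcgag
Tac1: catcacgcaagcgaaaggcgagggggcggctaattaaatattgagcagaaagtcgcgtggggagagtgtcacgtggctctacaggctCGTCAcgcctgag
Cck: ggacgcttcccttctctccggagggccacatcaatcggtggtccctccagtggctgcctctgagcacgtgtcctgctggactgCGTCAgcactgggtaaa
A match describes these letters and not a bound site. Of the 5 genes with the complete element, Sst, Scg2, Chgb and Pcsk1 were called in none of the comparisons below, and Cartpt was lower in KO mice.

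The libraries summed to between 27272270 and 28257496 estimated counts. WT-O2 mouse 4 is given as hyperoxia in its title and as room air in its treatment field, and the title was used. WT and KO mice carry separate ranges of animal numbers, so genotype and any difference in how the animals were collected cannot be told apart. Gsdmd was examined as a check of the genotype labels. It held 41 to 51 counts per WT-RA and 22 to 42 per KO-RA library, and 51 to 63 per WT-O2 and 36 to 40 per KO-O2 library. By the criteria given below it was called lower in hyperoxia (log2 fold change -0.58, edgeR q = 0.0962) and not in room air (-0.46, edgeR q = 0.168). The paper reports no measurable transcripts in knockout brains by qRT-PCR. A gene-level count cannot tell transcripts with the deletion from those without. The tissue label was compared with marker genes. The summed CPM (counts scaled to library size by TMM) of 10 genes of hippocampal fields was 615 to 1006 in WT and 1283 to 1591 in KO libraries, with no overlap. For 10 genes of striatal projection neurons it was 376 to 866 in WT and 191 to 285 in KO libraries, again with no overlap. Thalamic genes summed to 146 to 867 in WT and 156 to 180 in KO libraries, habenular genes to 50.7 to 104 and 51.6 to 62.5, GABAergic genes to 547 to 865 and 551 to 623, and deep cortical genes to 132 to 369 and 125 to 161. Hypothalamic genes were near 0, at 1.04 to 5.17 in WT and 0.535 to 1.14 in KO libraries, and Hmx3 was at 0 in every library. Genes of cholinergic neurons of the basal forebrain summed to 4.92 to 17.8 in WT and 2.21 to 3.63 in KO libraries. Choroid plexus genes were at 37.1 in KO-RA mouse 1 and 107 in KO-O2 mouse 2, and at 926 to 3410 in the other libraries.

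**Figure D1:**
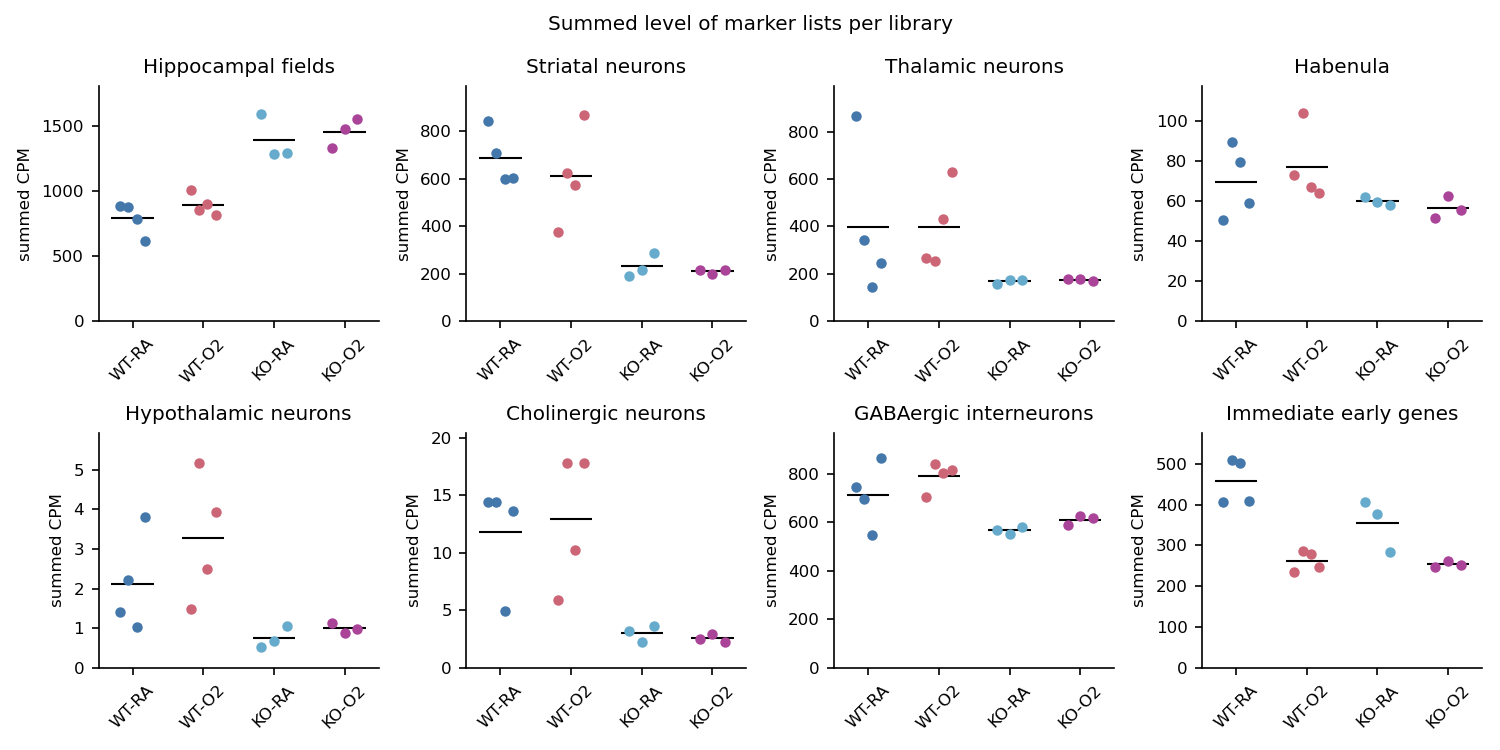
Summed CPM of 8 gene lists (vertical axes, from 0) in each library (points), by group, with the group mean as a line. Hippocampal genes were higher and striatal and cholinergic genes lower in all 6 KO than in all 8 WT libraries, and immediate early genes were at 235 to 286 in WT-O2 and 406 to 511 in WT-RA, and at 247 to 262 in KO-O2 and 285 to 407 in KO-RA.

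Levels per kilobase of exon, which allow a rough comparison between genes, differed widely. Each length is the union of all annotated exons and not that of the transcripts expressed. As the mean over the 14 libraries, Cpe, the carboxypeptidase, led with 771 CPM per kb. Sst followed with 239 CPM per kb, Pcsk1n, whose product proSAAS inhibits the first convertase, with 231, and Cck with 169. The granins lay between 51.1 (Chga) and 143 (Chgb) CPM per kb, and Npy was at 98.7. Among the convertases, Pcsk2 had 39.8 CPM per kb and Pcsk1 had 5.17. The hypothalamic precursors lay between 0.112 (Oxt) and 0.789 (Avp) CPM per kb. After the filter on low counts 34 of the 37 genes could be tested, and Oxt, Pmch and Hcrt could not. Avp and Ucn3 passed the filter only through WT libraries, and Trh would not have passed on its KO libraries alone. The counts of called genes below include Trh and Avp and are a description.

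Differences between genotypes were frequent and differences between exposures were not. To be called, a gene needed a log2 fold change of 0.32 or more in size, an unadjusted p below 0.05 and q below 0.1, where q is the Benjamini-Hochberg adjusted p of edgeR's quasi-likelihood test over 16637 genes. In KO-RA vs WT-RA, 10 of the 34 genes were called, 2 higher and 8 lower, while 10.4% of all genes were called (3.75% higher and 6.7% lower). In KO-O2 vs WT-O2, 6 were called, 1 higher and 5 lower, while 6.86% of all genes were called (2.51% higher and 4.35% lower). In WT-O2 vs WT-RA none was called by edgeR, with 9 at an unadjusted p below 0.05 and 1 called by DESeq2. Of all 16637 genes 0.643% were called by edgeR (0.349% higher and 0.295% lower) and 1.86% by DESeq2, and 2027 had an unadjusted p below 0.05. In KO-O2 vs KO-RA none was called by edgeR or DESeq2 and none had an unadjusted p below 0.05, and the calls over all genes were 0.012% (0.00601% in each direction). For the interaction of genotype and hyperoxia none was called by either tool, 2 had an unadjusted p below 0.05, and 0% of all genes were called. The median log2 fold change of the 34 genes was 0.02 in KO-RA vs WT-RA and -0.11 in KO-O2 vs WT-O2, beside -0.01 for all genes in both. In the WT and KO hyperoxia comparisons the medians were 0.05 and -0.06, beside -0.01 and 0.00 for all genes. Called genes thus took a larger share of the 34 than of all genes in both genotype comparisons, and all of them except Chga were precursors. No weight is put on this share, because the genes were chosen with earlier results known. The counts also hold Trh in both exposures and Avp in room air.

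**Figure D2:**
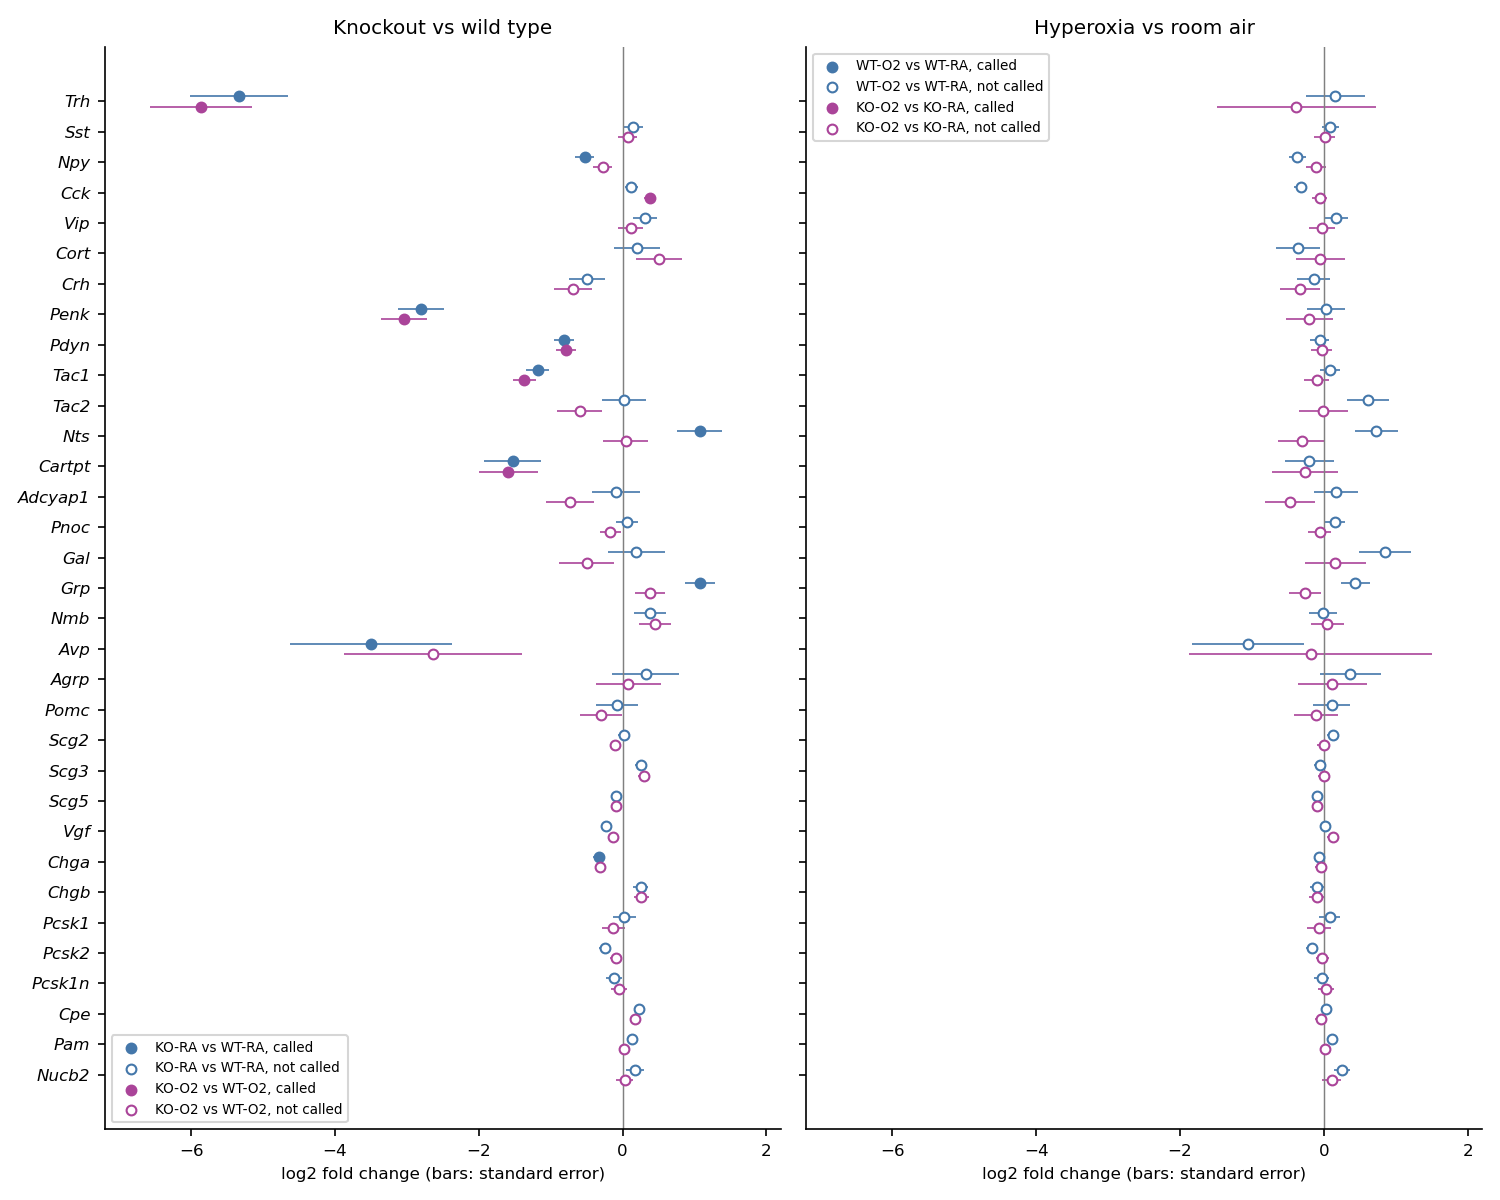
Log2 fold change (horizontal axes) and its standard error (bars) of 33 genes in KO vs WT (left) and in hyperoxia vs room air (right), with filled points for called genes. Ucn3 is not drawn because the KO-O2 group was at 0, and no point is filled in the right panel.

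Precursors of opioid and tachykinin peptides were lower in KO mice, all 3 of them in both exposures. Penk encodes proenkephalin, the precursor of the enkephalins. Its level was 134, 146, 73.7 and 132 CPM in WT-RA mice 1 to 4, and 13.7, 13.0 and 25.1 CPM in KO-RA mice 1 to 3. Under hyperoxia it was 70.7, 135, 111 and 177 CPM in WT-O2 mice 1 to 4, and 15.5, 15.1 and 14.3 CPM in KO-O2 mice 1 to 3. Every KO library lay below every WT library. Penk was 7.02-fold lower in KO-RA vs WT-RA (log2 fold change -2.81 ± 0.32 SE, edgeR q = 0.000162) and 8.23-fold lower in KO-O2 vs WT-O2 (-3.04 ± 0.32 SE, edgeR q = 0.000135). The order of the libraries for Penk was set beside their striatal marker sums. WT-O2 mouse 4 had the highest Penk of its group and a striatal sum of 866 CPM, and WT-O2 mouse 1 the lowest with a sum of 376 CPM. KO-RA mouse 3, the highest KO library for Penk, had a striatal sum of 285 CPM, the highest of the KO libraries. In WT-RA, mouse 3 was the lowest for both, whereas mouse 2 had the highest Penk and mouse 1 the highest striatal sum.

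Tac1, the precursor of substance P and neurokinin A, was at 22.9, 27.3, 23.0 and 34.6 CPM in the WT-RA mice and at 10.5, 11.0 and 14.0 CPM in the KO-RA mice. In hyperoxia it was at 23.9, 34.4, 26.6 and 29.6 CPM in WT-O2 and at 11.6, 11.5 and 10.1 CPM in KO-O2. The genotypes did not overlap. Tac1 was 2.27-fold lower in KO-RA (log2 fold change -1.18 ± 0.16 SE, edgeR q = 0.000484) and 2.59-fold lower in KO-O2 (-1.37 ± 0.16 SE, edgeR q = 0.00035). Its order followed the striatal sums only in part. WT-RA mouse 1 had the lowest Tac1 of its group and the highest striatal sum (841 CPM). WT-O2 mouse 1 was the lowest of its group for both, and KO-RA mouse 3 the highest of its group for both.

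Pdyn, the precursor of the dynorphins, had 20.7, 19.4, 24.4 and 19.3 CPM in the WT-RA mice and 13.6, 10.6 and 11.6 CPM in the KO-RA mice. It had 18.2, 19.0, 17.9 and 25.2 CPM in the WT-O2 mice and 12.3, 9.79 and 12.8 CPM in the KO-O2 mice. Again all KO libraries lay below all WT libraries, by a smaller factor than for Penk. The decrease was 1.76-fold in room air (log2 fold change -0.81 ± 0.14 SE, edgeR q = 0.00253) and 1.72-fold in hyperoxia (-0.79 ± 0.14 SE, edgeR q = 0.00456). WT-RA mouse 3 had the highest Pdyn of its group and the lowest striatal sum (599 CPM). KO-RA mouse 1 likewise had the highest Pdyn and the lowest striatal sum (191 CPM) of its group, whereas WT-O2 mouse 4 was the highest of its group for both. In tissue RNA, fewer cells of a type and less RNA per cell cannot be told apart.

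Trh, the precursor of thyrotropin-releasing hormone, had the largest fold difference of the genes called. It was at 16.7, 7.71, 4.70 and 25.8 CPM in the WT-RA mice and at 0.483, 0.140 and 0.391 CPM in the KO-RA mice. WT-O2 mice had 7.18, 14.4, 19.4 and 20.1 CPM and KO-O2 mice 0.322, 0.257 and 0.188 CPM. The lowest WT library held 133 counts and the highest KO library 13. Trh was 40.4-fold lower in KO-RA vs WT-RA (log2 fold change -5.34 ± 0.68 SE, edgeR q = 0.000324) and 58.6-fold lower in KO-O2 vs WT-O2 (-5.87 ± 0.71 SE, edgeR q = 0.000431). Since the WT counts brought Trh into the test, these values are given as a description, and the size of the fold is uncertain. Among WT-RA mice, mouse 3 was lowest and mouse 4 highest for Trh, and the same mice were lowest (1.04 CPM) and highest (3.81 CPM) for the sum of hypothalamic markers. In WT-O2, mouse 1 was lowest for both, but mouse 4 had the highest Trh and mouse 2 the highest sum (5.17 CPM). The match was not particular to this list. WT-RA mouse 3 was also lowest for the striatal (599 CPM), thalamic (146 CPM), cholinergic (4.92 CPM) and GABAergic (547 CPM) sums. WT-RA mouse 4 was also highest for the GABAergic sum (865 CPM), whereas mouse 1 was highest for the striatal and thalamic sums. WT-O2 mouse 4 was highest for the striatal (866 CPM) and thalamic (632 CPM) sums.

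Cartpt, the precursor of the CART peptides of feeding and reward circuits, was also lower in KO mice but less evenly. It was at 1.53, 4.47, 7.31 and 7.32 CPM in WT-RA, at 1.71, 1.68 and 1.96 CPM in KO-RA, at 3.08, 4.95, 4.64 and 5.29 CPM in WT-O2 and at 1.22, 2.02 and 1.24 CPM in KO-O2. WT-RA mouse 1 lay below the KO-RA mice, whereas the hyperoxia groups did not overlap. The decrease was 2.89-fold in room air (log2 fold change -1.53 ± 0.40 SE, edgeR q = 0.0269) and 3.01-fold in hyperoxia (-1.59 ± 0.41 SE, edgeR q = 0.0363). The call was lost without KO-RA mouse 1 (-1.50, edgeR q = 0.1) in room air, and without KO-O2 mouse 1 (-1.46, edgeR q = 0.136) or KO-O2 mouse 3 (-1.47, edgeR q = 0.151) in hyperoxia.

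Markers of other regions moved with genotype in the same libraries. In KO-RA vs WT-RA, 10 of 10 striatal, 6 of 10 thalamic and 5 of 6 cholinergic markers were called lower, and in KO-O2 vs WT-O2, 9 of 10, 6 of 10 and 6 of 6. Of 7 deep cortical markers, 6 were called lower in room air and 2 in hyperoxia, and of 6 habenular markers, 2 in room air and none in hyperoxia, where 4 had an unadjusted p below 0.05. Of the 8 hypothalamic markers 2 could be tested, and 1 was called lower in each comparison. When scores of the striatal and thalamic lists were added to the fit as covariates, none of the 16 genotype differences was called, and each kept its direction. Penk was then at a log2 fold change of -1.08 in room air (edgeR q = 0.452) and -1.28 in hyperoxia (edgeR q = 0.286), and Trh at -4.41 (edgeR q = 0.304) and -4.86 (edgeR q = 0.237). Tac1 was at -0.69 and -0.92 and Pdyn at -0.41 and -0.43 in that fit. The striatal score was -0.095 to 1.247 in WT and -1.259 to -0.514 in KO libraries, so this score separated the genotypes by itself, while the thalamic score was -0.915 to 1.854 in WT and -0.769 to -0.59 in KO libraries. With both scores 0.0902% of all genes in room air and 0.138% in hyperoxia were called. The part of the hypothalamic, cholinergic, deep cortical and habenular markers in these results was not tested.

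**Figure D3:**
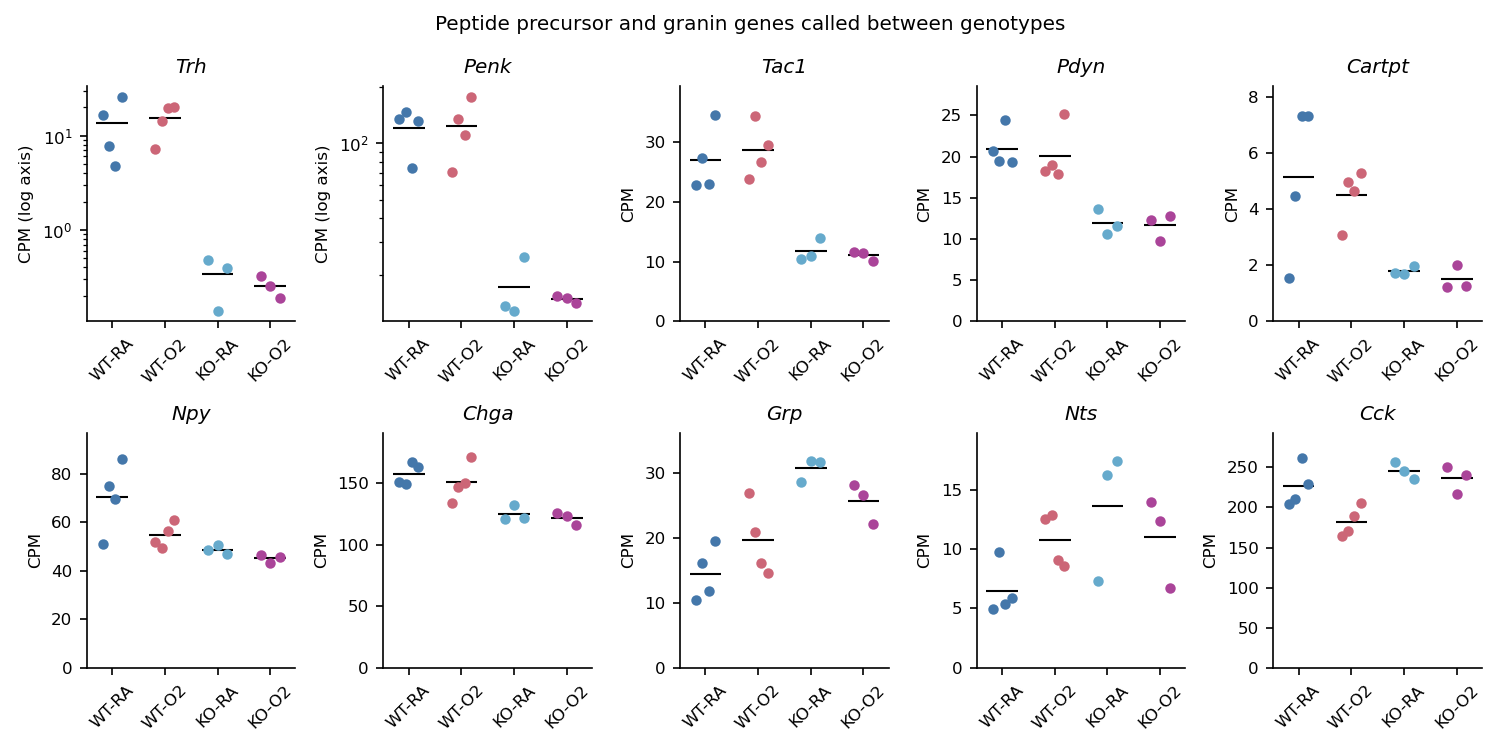
CPM of 10 genes called between genotypes (vertical axes, from 0 except for the log axes of Trh and Penk) in each library (points), by group, with the group mean as a line. All KO libraries lie below all WT libraries for Trh, Penk, Tac1, Pdyn and Chga, and Grp is highest in the KO-RA mice at 28.6 to 31.9 CPM.

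Of the 8 precursors expressed by inhibitory interneurons, Npy was lower in KO-RA and Cck higher in KO-O2, and the others were not called. Npy, which encodes the inhibitory peptide neuropeptide Y, was at 51.0, 75.1, 69.8 and 86.2 CPM in WT-RA and at 48.7, 50.7 and 46.8 CPM in KO-RA. It was at 51.8, 49.6, 56.3 and 61.0 CPM in WT-O2 and at 46.6, 43.1 and 45.8 CPM in KO-O2. KO libraries lay below WT libraries within each exposure, narrowly so in room air, where WT-RA mouse 1 was close to the KO-RA mice. The difference was 1.45-fold in room air (log2 fold change -0.53 ± 0.13 SE, edgeR q = 0.0164), and in hyperoxia it was not called (-0.28 ± 0.13 SE, edgeR q = 0.262). The interaction of Npy was 0.26 ± 0.18 SE on the log2 scale (edgeR q = 1).

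Cck, the precursor of cholecystokinin, which basket cells and many pyramidal cells express, was at 204, 211, 262 and 229 CPM in WT-RA and at 257, 246 and 235 CPM in KO-RA. In hyperoxia it was at 164, 171, 189 and 205 CPM in WT-O2 and at 251, 217 and 241 CPM in KO-O2. The room air groups overlapped and the hyperoxia groups did not. Cck was 1.30-fold higher in KO-O2 vs WT-O2 (log2 fold change 0.38 ± 0.09 SE, edgeR q = 0.0273), a call that was lost without KO-O2 mouse 1 (0.33, edgeR q = 0.115) or KO-O2 mouse 3 (0.36, edgeR q = 0.109). In KO-RA vs WT-RA it was at 0.12 ± 0.09 SE (edgeR q = 0.493).

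Sst, the precursor of somatostatin, was at 125, 170, 142 and 206 CPM in WT-RA, at 151, 189, 174 and 173 CPM in WT-O2, at 173, 188 and 175 CPM in KO-RA and at 182, 189 and 171 CPM in KO-O2. All groups overlapped, and the log2 fold changes of the 4 comparisons lay between 0.01 and 0.15. Vip, the precursor of vasoactive intestinal peptide, was at 6.19, 11.1, 9.75 and 10.4 CPM in WT-RA and at 12.5, 10.3, 11.1 and 8.37 CPM in WT-O2. The KO mice had 11.2, 11.3 and 12.4 CPM in room air and 12.7, 10.5 and 11.0 CPM in hyperoxia. For Vip the room air genotypes did not overlap, but the difference was not called (log2 fold change 0.31 ± 0.17 SE, edgeR q = 0.294). Cort (cortistatin), Crh (corticotropin-releasing hormone), Tac2 (neurokinin B) and Pnoc (nociceptin) ranged over all libraries from 2.65 to 9.62, 1.14 to 3.48, 2.98 to 11.8 and 8.90 to 15.4 CPM, and none was called. The nearest to a call was Crh in KO-O2 vs WT-O2 at -0.69 ± 0.26 SE (edgeR q = 0.154). Without WT-RA mouse 1, Crh was called lower in KO-RA (-0.68, edgeR q = 0.059) and, through the shared estimate of the spread, in KO-O2 (-0.68, edgeR q = 0.0604). Of the 10 GABAergic markers, 4 were called lower and none higher in KO-RA vs WT-RA, and 3 lower and none higher in KO-O2 vs WT-O2. Their part in the interneuron precursors was not tested.

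Grp and Nts were the genes called higher in KO-RA vs WT-RA. Grp encodes gastrin-releasing peptide, a bombesin-like peptide of excitatory neurons. It was at 10.4, 16.2, 11.9 and 19.6 CPM in WT-RA and at 28.6, 31.9 and 31.7 CPM in KO-RA, with no overlap. In hyperoxia it was at 27.0, 21.0, 16.2 and 14.6 CPM in WT-O2 and at 28.1, 26.7 and 22.2 CPM in KO-O2, and these groups overlapped. Grp was 2.11-fold higher in KO-RA (log2 fold change 1.08 ± 0.21 SE, edgeR q = 0.00488) and at 0.38 ± 0.21 SE in KO-O2 (edgeR q = 0.355). The call in room air was kept without each mouse in turn. In the same comparisons 10 of 10 and 7 of 10 markers of hippocampal fields were called higher, and their part in the values of Grp and Nts was not tested. With the striatal and thalamic scores as covariates Grp was at 0.28 and Nts at 1.27 in room air, both without a call.

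Nts, the precursor of neurotensin, was at 4.98, 9.72, 5.37 and 5.85 CPM in WT-RA and at 7.28, 16.2 and 17.4 CPM in KO-RA. In hyperoxia it was at 12.5, 12.9, 9.06 and 8.56 CPM in WT-O2 and at 14.0, 12.4 and 6.71 CPM in KO-O2. WT-RA mouse 2 exceeded KO-RA mouse 1, and the hyperoxia groups overlapped fully. The difference in room air was 2.11-fold (log2 fold change 1.07 ± 0.31 SE, edgeR q = 0.0424), and it was not called without KO-RA mouse 2 (0.93, edgeR q = 0.147) or KO-RA mouse 3 (0.87, edgeR q = 0.173). In KO-O2 vs WT-O2 it was 0.04 ± 0.31 SE (edgeR q = 0.969). The genotype difference of both genes was smaller in hyperoxia than in room air before adjustment, with an interaction of -0.70 ± 0.30 SE for Grp (unadjusted p = 0.034 by edgeR) and -1.03 ± 0.44 SE for Nts (unadjusted p = 0.0342 by edgeR). Both had an adjusted p of 1, and 673 of 16637 genes had an unadjusted p below 0.05 for the interaction.

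The other precursors were not called. Adcyap1, which encodes the peptide PACAP, ranged from 6.40 to 20.3 CPM, and Gal, which encodes galanin, from 0.601 to 3.19 CPM. Nmb (neuromedin B) ranged from 1.33 to 2.90 CPM and Nucb2, the precursor of nesfatin-1, from 10.1 to 16.3 CPM. Among these, Adcyap1 in KO-O2 vs WT-O2 had the lowest p between genotypes (log2 fold change -0.73 ± 0.33 SE, edgeR q = 0.254). Exons of Nmb overlap those of Sec11a on the same strand, so its counts are uncertain.

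Hypothalamic precursors were at or near the limit of detection, and several were counted almost only in WT libraries. Avp, the precursor of vasopressin, held 16, 58, 0 and 38 counts in the WT-RA mice, 2, 19, 10 and 23 in the WT-O2 mice, 3, 1 and 3 in the KO-RA mice and 1, 0 and 5 in the KO-O2 mice. WT-RA mouse 3 overlapped the KO mice. Avp met the criteria of a call in KO-RA (log2 fold change -3.50 ± 1.13 SE, edgeR q = 0.0649) and not in KO-O2 (-2.64 ± 1.24 SE, edgeR q = 0.269), where it met them without WT-RA mouse 3 (-2.63, edgeR q = 0.0999). Since the WT counts alone brought it into the test, these values are given as a description. The call in room air was lost without WT-RA mouse 2 (-2.87, edgeR q = 0.163) or WT-RA mouse 4 (-3.32, edgeR q = 0.115) and without KO-RA mouse 1, 2 or 3 (-3.74, -3.14 and -3.69, with edgeR q = 0.161, 0.191 and 0.159).

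Ucn3, which encodes urocortin 3, held 0, 2, 0 and 34 counts in WT-RA, 2, 15, 11 and 13 in WT-O2, 0, 1 and 0 in KO-RA and 0 in each KO-O2 mouse. Most of the WT-RA counts came from mouse 4. It was not called in either genotype comparison (edgeR q = 0.202 and 0.167), and in KO-O2 vs WT-O2 the adjusted p was lower without WT-RA mouse 4 (edgeR q = 0.0202) and with the 2 groups alone (edgeR q = 0.0277). Ucn3 too was tested because of its WT counts, and no difference is drawn from these values. Pmch, the precursor of melanin-concentrating hormone, held 5, 5, 2 and 9 counts in WT-RA, 3, 2, 2 and 44 in WT-O2, 0 in each KO-RA mouse and 2, 0 and 3 in KO-O2. WT-O2 mouse 4 thus stood apart for Pmch, whose exons overlap those of Parpbp on the opposite strand. Oxt (oxytocin) reached 4 and Hcrt (orexin) 8 counts in a library. A count of 0 allows up to 3 counts in that library, by counting error alone, so a difference of this size was not detectable. Agrp and Pomc, whose peptides act on melanocortin receptors, held 4 to 14 and 13 to 30 counts and were not called. Exons of Agrp overlap those of Ctcf on the opposite strand.

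Granins differed little between genotypes, and of the 6 only Chga was called. Chga, which encodes chromogranin A, a driver of granule formation, was at 151, 149, 167 and 163 CPM in WT-RA and at 121, 132 and 122 CPM in KO-RA. It was at 134, 147, 150 and 171 CPM in WT-O2 and at 126, 123 and 116 CPM in KO-O2. The genotypes did not overlap in either exposure. Chga was called lower in KO-RA at 1.26-fold (log2 fold change -0.33 ± 0.08 SE, edgeR q = 0.0117), and the 1.24-fold difference in KO-O2 (-0.31 ± 0.08 SE, edgeR q = 0.0272) was below the fold threshold but passed it without WT-O2 mouse 1 (-0.36) or KO-O2 mouse 1 (-0.33). Its fold change in room air also fell below that threshold without WT-RA mouse 3 (-0.30), WT-RA mouse 4 (-0.31), KO-RA mouse 1 (-0.31) or KO-RA mouse 3 (-0.30).

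Scg3 encodes secretogranin III, which ties granins to the granule membrane. It was at 268, 336, 347 and 311 CPM in WT-RA, 364, 382 and 377 CPM in KO-RA, 330, 289, 305 and 290 CPM in WT-O2 and 384, 359 and 380 CPM in KO-O2. KO libraries lay above WT libraries, by 1.19-fold in room air (edgeR q = 0.062) and 1.23-fold in hyperoxia (edgeR q = 0.0362), both below the fold threshold. It reached the threshold in hyperoxia without WT-O2 mouse 1 (log2 fold change 0.34) or KO-O2 mouse 2 (0.33). Chgb, chromogranin B, was at 291 to 411 CPM in WT and 405 to 475 CPM in KO libraries and was not called (edgeR q = 0.151 in room air and 0.192 in hyperoxia). In hyperoxia it was called higher without WT-O2 mouse 4 (log2 fold change 0.35, edgeR q = 0.0662), the mouse whose labels conflict. Thus Chga was lower and Scg3 higher in KO than in WT libraries, each by a small factor.

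Vgf, whose peptides act in synaptic plasticity, was at 253, 264, 219 and 259 CPM in WT-RA, 238, 269, 251 and 252 CPM in WT-O2, 213, 226 and 195 CPM in KO-RA and 225, 236 and 233 CPM in KO-O2. The hyperoxia genotypes did not overlap, with KO below WT. Its log2 fold change was -0.23 ± 0.07 SE in KO-RA vs WT-RA (edgeR q = 0.052), a 1.18-fold difference, and -0.13 ± 0.07 SE in KO-O2 vs WT-O2 (edgeR q = 0.367). Scg2, the precursor of secretoneurin, was at 181, 194, 169 and 207 CPM in WT-RA, 174, 205, 213 and 228 CPM in WT-O2, 195, 198 and 180 CPM in KO-RA and 191, 190 and 192 CPM in KO-O2. These groups overlapped. Scg5, whose product 7B2 is the chaperone of the second convertase, ranged from 106 to 137 CPM with no call.

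None of the 5 processing genes was called in any comparison. Cpe was at 1994, 1837, 1698 and 1965 CPM in WT-RA, 1827, 1833, 2040 and 1945 CPM in WT-O2, 2279, 2175 and 2140 CPM in KO-RA and 2254, 2005 and 2171 CPM in KO-O2. The room air genotypes did not overlap, but the 1.17-fold difference (log2 fold change 0.23 ± 0.07 SE, edgeR q = 0.0546) was below the fold threshold. Pcsk1 was at 20.0, 29.6, 28.9 and 36.0 CPM in WT-RA, 32.6, 35.1, 29.7 and 23.4 CPM in WT-O2, 28.7, 27.9 and 30.5 CPM in KO-RA and 27.4, 29.3 and 26.2 CPM in KO-O2. The WT range of Pcsk1 held every KO value. Pcsk2 was at 287 to 403 CPM and was 1.19-fold lower in KO-RA vs WT-RA (-0.25 ± 0.08 SE, edgeR q = 0.0762), below the threshold. Pcsk1n ranged from 433 to 587 CPM. Pam, the amidating enzyme, was the narrowest of the 37 genes, from 104 to 122 CPM, a 1.18-fold range.

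**Figure D4:**
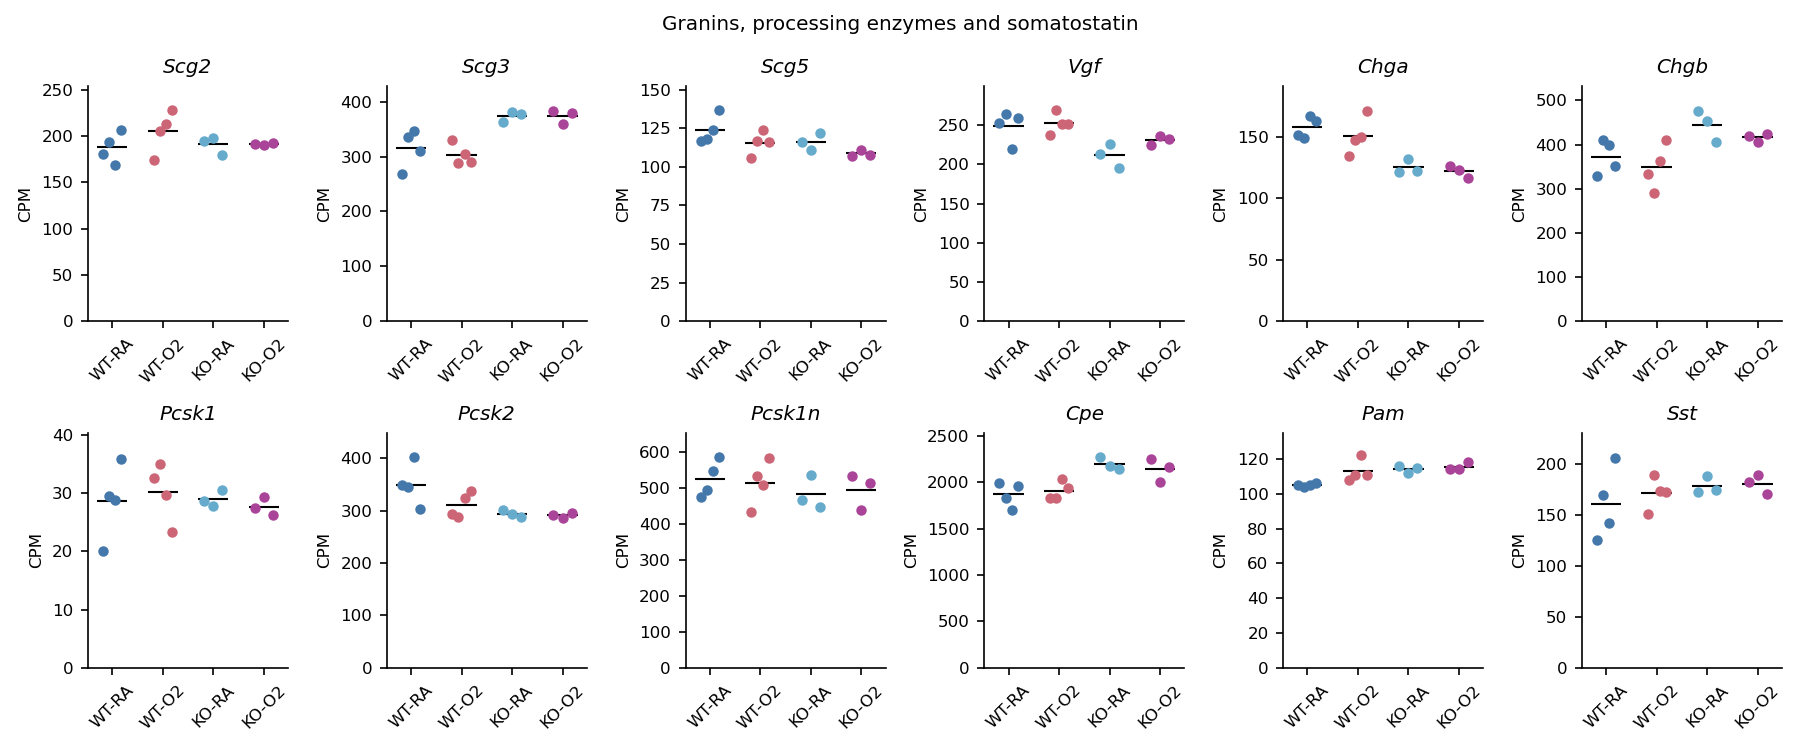
CPM of 6 granins, 5 processing genes and Sst (vertical axes, from 0) in each library (points), by group, with the group mean as a line. The KO libraries lie above the WT libraries for Scg3 and below them for Chga, and the groups overlap for Scg2, Pcsk1, Pcsk1n and Sst.

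Hyperoxia left the levels of these genes with no call in either genotype. The 9 genes with an unadjusted p below 0.05 in WT-O2 vs WT-RA were Cck, Npy and Pcsk2, at log2 fold changes of -0.32, -0.37 and -0.17, and Gal, Nts, Tac2, Grp, Nucb2 and Pam, at 0.85, 0.73, 0.61, 0.44, 0.25 and 0.11. Their edgeR q values lay between 0.144 (Cck) and 0.41 (Tac2). Of the 34 genes tested, Pam alone did not overlap between these groups, at 104 to 106 CPM in WT-RA and 108 to 122 CPM in WT-O2, where 5.99% of all genes did not overlap (2.95% higher and 3.04% lower). DESeq2 called Npy lower in WT-O2 (-0.36, DESeq2 q = 0.0855). WT-RA mouse 1 had the lowest Npy (51.0 CPM) and Cck (204 CPM) and the highest Gal (2.11 CPM) of its group. Without it, edgeR called Npy (-0.49, edgeR q = 0.0105) and Cck (-0.36, edgeR q = 0.0775) lower and Gal higher (1.28, edgeR q = 0.0995) in WT-O2, and without WT-O2 mouse 4 it called Cck lower (-0.38, edgeR q = 0.0965). WT-RA mouse 1 also had the lowest deep cortical sum (132 CPM, against 241 to 369 CPM) and the highest thalamic sum (867 CPM, against 146 to 341 CPM) of its group. In WT-O2 vs WT-RA, 2 of 7 deep cortical markers were called lower and 5 had an unadjusted p below 0.05, at a list median of -0.59 on the log2 scale, and their part in these values was not tested.

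In KO mice, Npy and Grp did not overlap between exposures, both lower in KO-O2, where 11.8% of all genes did not overlap (5.52% higher and 6.23% lower). Their log2 fold changes were -0.11 ± 0.14 SE and -0.26 ± 0.22 SE (edgeR q = 0.997 for both). Penk, Tac1, Pdyn, Trh and Cartpt, which differed between genotypes, had log2 fold changes with hyperoxia of -0.20 to 0.16 in WT and -0.38 to -0.03 in KO mice. Of 10 immediate early genes, which neurons switch on when active, 5 were called lower in WT-O2 vs WT-RA, among them Fos (-1.09 ± 0.12 SE, edgeR q = 0.00522) and Arc (-1.18 ± 0.15 SE, edgeR q = 0.00593). Among KO mice 1 of these genes was called lower with hyperoxia, 6 had an unadjusted p below 0.05, and the sums were 247 to 262 CPM against 285 to 407 CPM. In WT-O2 vs WT-RA Vgf was at 0.02 ± 0.07 SE, Scg2 at 0.13 ± 0.08 SE and Pcsk1 at 0.08 ± 0.15 SE.

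Between genotypes, KO and WT libraries did not overlap for 12 of the 34 genes in room air (5 higher and 7 lower) and for 15 in hyperoxia (3 higher and 12 lower), where 19.6% (8.62% higher and 11% lower) and 19% (8.53% higher and 10.5% lower) of all genes did not overlap. Higher in room air were Vip, Grp, Scg3, Cpe and Pam, and higher in hyperoxia were Cck, Cort and Scg3. Lower in both exposures were Trh, Npy, Penk, Pdyn, Tac1 and Chga. These counts hold Trh in both exposures and Ucn3 in hyperoxia, which WT libraries brought into the test. They are therefore a description.

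Receptors and binding proteins of these peptides were examined as a list of 42 genes, of which 41 were tested. In KO-RA vs WT-RA 4 were called higher and 8 lower, and in KO-O2 vs WT-O2 2 were called higher and 10 lower. Over all genes these shares were 3.75% higher and 6.7% lower in room air and 2.51% higher and 4.35% lower in hyperoxia. None was called by edgeR in the hyperoxia comparisons, with 7 in WT and 4 in KO mice at an unadjusted p below 0.05, nor for the interaction, with 3. The median log2 fold change of the list was 0.01 in room air and -0.08 in hyperoxia between genotypes.

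The lowest p belonged to Oprk1, the kappa opioid receptor on which dynorphins act. Oprk1 was at 13.1 ± 3.62 CPM (SD, n = 4) in WT-RA and 2.49 ± 0.284 CPM (SD, n = 3) in KO-RA, and at 8.51 ± 2.23 and 2.28 ± 0.543 CPM in WT-O2 and KO-O2. No KO library reached a WT library, and the log2 fold changes were -2.40 ± 0.27 SE (edgeR q = 0.000134) and -1.90 ± 0.27 SE (edgeR q = 0.00117). Trhr2, a receptor of thyrotropin-releasing hormone, held 14 to 60 counts per WT library and 1 to 7 per KO library (log2 fold changes -3.11 ± 0.64 SE, edgeR q = 0.007, and -3.07 ± 0.65 SE, edgeR q = 0.0118). Cckar, the cholecystokinin A receptor, held 1 to 68 counts per WT library and 0 to 4 per KO library, and met the criteria in both exposures (edgeR q = 0.00802 and 0.011). Trhr2 and Cckar passed the filter only through WT libraries, where they were high, so their values are a description. Cckbr, the cholecystokinin B receptor of the brain, was at 20.6 to 67.4 CPM in WT and 15.9 to 22.3 CPM in KO libraries, with a log2 fold change of -1.29 ± 0.28 SE in room air (edgeR q = 0.00925) and -0.92 ± 0.28 SE in hyperoxia (edgeR q = 0.0689). Cckbr was thus lower in KO mice, whereas Cck itself was at 0.12 in room air and higher in hyperoxia.

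Tacr1, the substance P receptor, was lower as well (-1.03 ± 0.33 SE, edgeR q = 0.0654 in room air and -1.58 ± 0.33 SE, edgeR q = 0.0113 in hyperoxia). Oprl1, the nociceptin receptor, was at 44.4 to 53.6 CPM in WT-O2 and 31.8 to 36.9 CPM in KO-O2 (-0.47 ± 0.08 SE, edgeR q = 0.00418). The genes called higher were picked out after their values were seen. They were Npy1r (0.33, edgeR q = 0.0909), Npy2r (0.59, edgeR q = 0.0302) and Npy5r (0.43, edgeR q = 0.077), all receptors of neuropeptide Y, in room air, Sstr4, a somatostatin receptor, in hyperoxia (0.55, edgeR q = 0.0881), and Crhbp, which binds corticotropin-releasing hormone, in both (0.46, edgeR q = 0.079 and 0.49, edgeR q = 0.0865). The part of the striatal, thalamic and deep cortical markers in the receptor values was not tested.

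**Figure D5:**
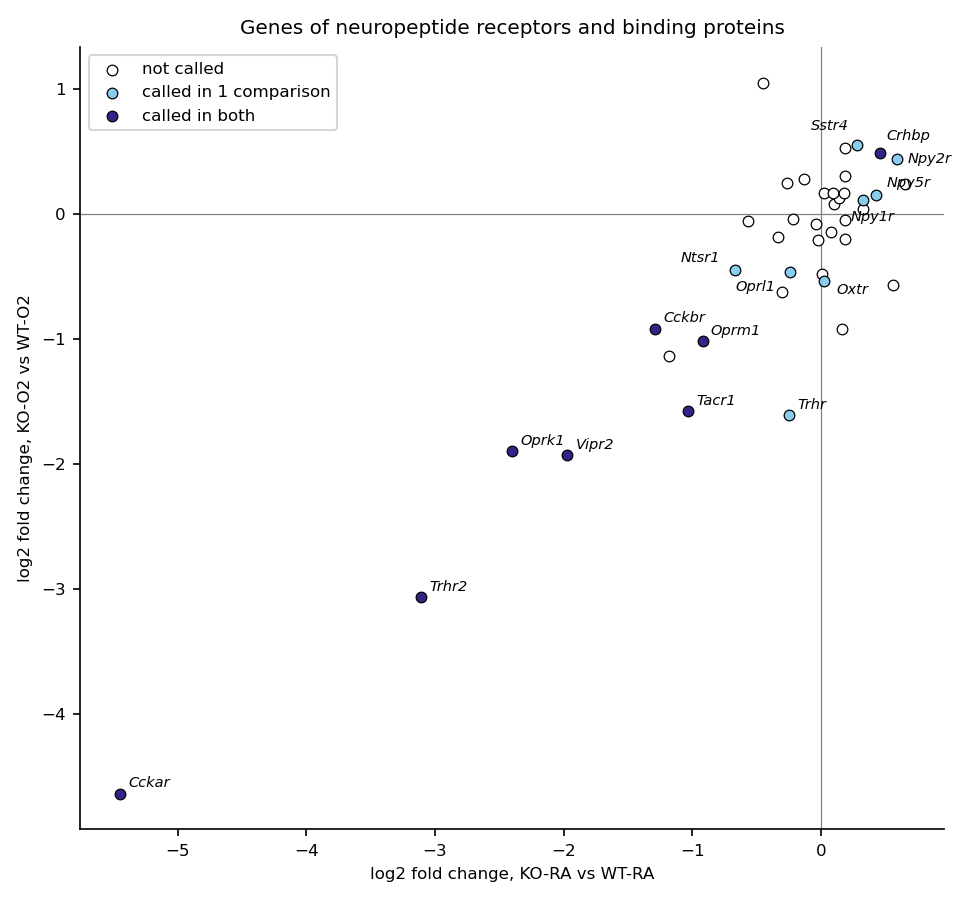
Log2 fold change between genotypes in room air (horizontal axis) and in hyperoxia (vertical axis) of the 41 tested genes of receptors and binding proteins, with colour for the number of comparisons in which a gene was called. Cckar, Trhr2, Oprk1 and Vipr2 lie farthest to the lower left, and the NPY receptors lie above 0 on both axes.

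Other genes of the pathway were examined in 3 lists. Of 34 further peptide precursors 16 were tested. Adm (adrenomedullin) and Edn1 (endothelin 1), vasoactive peptides, were called higher in WT-O2 vs WT-RA, at log2 fold changes of 1.80 ± 0.35 SE (edgeR q = 0.0612) and 1.30 ± 0.25 SE (edgeR q = 0.0574). The KO groups did not overlap for these genes either, at 3.25 to 6.46 CPM in KO-O2 and 0.558 to 1.32 CPM in KO-RA for Adm (2.32 ± 0.42 SE, edgeR q = 0.186) and 4.88 to 7.62 and 2.45 to 3.15 CPM for Edn1 (1.20 ± 0.29 SE, edgeR q = 0.66). Between the KO groups 11.8% of all genes did not overlap (5.52% higher and 6.23% lower). The interaction was called for neither (edgeR q = 1). For Edn1 the paper reports otherwise by qRT-PCR, a different measure: a rise with hyperoxia in WT brains that the knockout prevented. Cbln1, a secreted organizer of synapses, was called lower in KO mice in room air (-0.61 ± 0.21 SE, edgeR q = 0.0891) and hyperoxia (-0.95 ± 0.21 SE, edgeR q = 0.0171). Of 24 other genes of processing and dense-core granules, all tested, Syt9, a calcium sensor of secretory vesicles, was called lower in both (-1.22 ± 0.37 SE, edgeR q = 0.0534 and -1.63 ± 0.38 SE, edgeR q = 0.0199), and Resp18, a granule protein, in hyperoxia (-0.82 ± 0.24 SE, edgeR q = 0.0617). Of 16 peptide-degrading enzymes, Mme (neprilysin), which cleaves enkephalins and substance P, was called lower in both (-0.75 ± 0.12 SE, edgeR q = 0.00144 and -0.59 ± 0.12 SE, edgeR q = 0.00889). Ece1, the endothelin-converting enzyme (-0.38 ± 0.09 SE, edgeR q = 0.012), and Dpp4, which trims neuropeptide Y (-0.80 ± 0.23 SE, edgeR q = 0.0446), were called lower in room air. The 3 lists had no other call in these comparisons.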

How the data were processed

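Poly-A RNA of the hippocampus was sequenced as paired-end reads, and the deposited values are estimated counts of genes, which the authors made with Kallisto on the mouse build GRCm39 and summed with tximport. Tool versions and count scaling are not given in the sources used here. Per library, 41% to 43.2% of the values are not whole numbers, and they were rounded. Mice were grouped by their titles. Nothing names separate litters, so p-values measure the spread between these mice.

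Counts were filtered with filterByExpr, which left 16637 genes, scaled by TMM and analysed in edgeR (version 4.0.16, under R 4.3.3). All 14 libraries entered a model in which each group had its own coefficient, and contrasts were tested with the two-sided quasi-likelihood F-test and Benjamini-Hochberg adjustment. Calls were tested on simulated data with changes between exposures and none between genotypes. The recovery of genotype differences was thus not tested. DESeq2 1.42.0 was an alternative. All genes were fitted and only those of interest are reported. The genes, the lists and the tests were chosen with earlier results of these data known. Values per mouse are given for genes called in at least 1 comparison and for Sst, Npy, Cck, Vip, Penk, Pdyn, Vgf, Scg2, Pcsk1 and Cpe. Scg3, Ucn3 and Pmch are given per mouse outside this rule. Of other lists, up to 4 called genes with the smallest p are named per comparison. Levels per kilobase use the exons of GENCODE M21 on GRCm38. Between 27272270 and 28257496 counts per library set the counting error, and a floor of 3 counts was used for a count of 0.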

Additional observations from a re-analysis of the deposited data

Results flagged for a closer look

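In the 68 groups of 4 WT mice formed by the 34 tested genes, 5 held a mouse whose distance to the nearest other mouse, divided by the range of the group, exceeded Dixon's 95% critical value. Chance gives about 1 in 20 such groups. Pdyn was at 25.2 CPM in WT-O2 mouse 4, where the other mice had 17.9 to 19.0 CPM. Tac2 was at 11.8 CPM in WT-O2 mouse 2, above 6.55 to 6.60 CPM in the others, and the habenular marker sum of that mouse was 104 CPM, above 63.9 to 73.0 CPM. Nmb was at 1.33 CPM in WT-RA mouse 4, below 1.94 to 1.97 CPM. Pomc was at 1.03 CPM in WT-O2 mouse 3, above 0.789 to 0.806 CPM. Ucn3 was at 1.22 CPM in WT-RA mouse 4, above 0.00 to 0.0704 CPM, and the hypothalamic marker sum of that mouse, 3.81 CPM, was the highest of its group. The KO groups of 3 mice were not compared in this way.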

How the results depend on the processing

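The 16 genotype differences called were compared with 25 alternative settings, each where it gave a value, and 356 of 397 such comparisons kept the call, 41 lost it and 0 changed direction. With the striatal and thalamic scores as covariates, 0 genes were called in KO-RA vs WT-RA and 0 in KO-O2 vs WT-O2. DESeq2 in place of edgeR called 1 gene in WT-O2 vs WT-RA. When each mouse was left out in turn, 7 to 11 genes were called in KO-RA vs WT-RA, 4 to 8 in KO-O2 vs WT-O2, 0 to 3 in WT-O2 vs WT-RA, 0 to 0 in KO-O2 vs KO-RA and 0 to 0 for the interaction. The other settings were DESeq2 size factors, library size, no filter, at least 10 counts in every library, the 2 groups compared alone, a fold change of 1.5, a q of 0.05 and WT-O2 mouse 4 as WT-RA. These gave 8 to 10 calls in KO-RA vs WT-RA and 5 to 7 in KO-O2 vs WT-O2. Without KO-RA mouse 1 and KO-O2 mouse 2, a setting chosen after seeing the data, 7 and 7 were called. Trh could not be fitted with at least 10 counts in every library, and the interaction could not be fitted with 2 groups. No paired analysis was possible because the labels give no replicate numbers shared between groups. Genes under about 10 counts per library (Oxt, Hcrt, Pmch, Ucn3 and Avp in KO mice) could not be resolved at this depth. Agrp, at 4 to 14 counts per library, was close to this level. So was Trh in KO mice, at 4 to 13 counts in room air and 5 to 9 in hyperoxia.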
